A study of Homo sapiens with 18 samples.

Results

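A set of 40 genes of the cell division cycle is described here: 20 that act when DNA is copied (S-phase members) and 20 that act when chromosomes are divided (mitotic members). They were chosen by symbol, with earlier results of these data known. A gene was used where the array had a probe set annotated to that symbol alone. Of the 40 members 39 were measured, each by exactly 1 such probe set, out of 18417 measured genes. CENPA, the centromeric histone, was left out because its probe set also carries SLC35F6. Every value is a log2 signal as the authors deposited it, so a difference of 1 is a 2-fold change. Signals of different genes are not compared with each other, because each probe set has its own brightness.

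The 18 arrays form 6 groups of 3. L428 cells come from a classical Hodgkin lymphoma, which arises from B cells but has lost B-cell gene expression. L428-PAX5 is its derivative in which mifepristone induces PAX5, a transcription factor needed for B-cell identity. The groups written +M had 0.25 nM mifepristone, with 5 days of treatment. The groups written +MAT (in L428 and in L428-PAX5) received mifepristone for 2 days, then also 3 µM 5-aza-2′-deoxycytidine (5-aza-dC, a nucleoside built into DNA that blocks DNA methylation) for 3 days, and 640 nM trichostatin A (TSA, an inhibitor of histone deacetylases) for the last 24 hours. These 4 groups therefore share mifepristone. Raji and Namalwa are untreated Burkitt lymphoma lines, so line and mifepristone cannot be told apart where they are compared with L428. L428-PAX5 alone was grown with added HEPES buffer, and uninduced L428-PAX5 cells were not analysed here, so PAX5, the derivation of that line and its medium cannot be told apart either. Titles of the 3 L428-PAX5+MAT arrays read L425-PAX5, and the cell line field, which reads L428-PAX5, was followed. Nothing in the labels tells if the 3 replicates grew in separate flasks, and so a p-value reflects only how far these samples spread, which may be technical.

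Replication starts at origins on which CDC6 and CDT1 load the ring of MCM2 to MCM7. The ring becomes a helicase when CDC45, the GINS proteins and MCM10 join it, and cyclins E1 and E2 (CCNE1, CCNE2) help to trigger this step. Polymerases then copy DNA around the clamp PCNA, which the RFC proteins load. Later, cyclins A2, B1 and B2 with CDK1 drive cells into mitosis, where kinetochore proteins, spindle motors and checkpoint kinases move and guard the chromosomes. In textbook accounts, E2F factors turn on many S-phase genes, while FOXM1, B-MYB and the MuvB complex act on mitotic genes through an element called CHR, often near a CCAAT box.

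Such elements can be searched for as short words in promoters, and 4 promoters are printed as examples. Being chosen for holding an E2F word (S-phase members) or a CHR word (mitotic members), they cannot show that the classes differ. They belong to the S-phase members with an E2F word, and the mitotic members with a CHR word, of largest log2 difference with 5-aza-dC and TSA in L428-PAX5 (2 of each). Each stretch runs from 130 bases before the start to 20 bases from it, from RefSeq on GRCh38.p14. Where a gene had several promoters listed, the one whose stretch held the most kinds of word, then the most words, was printed. Capitals mark the words searched on either strand: TTTCCCGC, TTTCGCGC, TTTGCCGC or TTTGGCGC for E2F, TTTGAA or TTCGAA for CHR, and CCAAT. POLE2 lies at chr14:49688195-49688344 on the minus strand, CDC6 at chr17:40287749-40287898 on the plus strand, CDC25C at chr5:138331785-138331934 on the minus strand (1 of 4 promoters listed) and CDK1 at chr10:60778348-60778497 on the plus strand (1 of 2 listed).
POLE2: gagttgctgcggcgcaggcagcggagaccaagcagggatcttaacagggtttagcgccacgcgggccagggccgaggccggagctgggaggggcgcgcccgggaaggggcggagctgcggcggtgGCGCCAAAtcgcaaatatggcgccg
CDC6: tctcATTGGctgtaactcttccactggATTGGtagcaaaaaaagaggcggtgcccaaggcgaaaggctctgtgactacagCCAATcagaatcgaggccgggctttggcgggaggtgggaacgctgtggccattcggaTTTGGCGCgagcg
CDC25C: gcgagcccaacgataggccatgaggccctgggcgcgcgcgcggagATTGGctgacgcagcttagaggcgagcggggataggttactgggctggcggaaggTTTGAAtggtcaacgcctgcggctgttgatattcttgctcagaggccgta
CDK1: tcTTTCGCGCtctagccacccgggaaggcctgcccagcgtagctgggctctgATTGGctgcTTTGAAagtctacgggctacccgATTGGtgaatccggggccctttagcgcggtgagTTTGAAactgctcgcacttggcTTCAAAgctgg
The POLE2 stretch holds its E2F word in reverse, across the start, and no other word. CDC6 has an E2F word just after the start and 3 CCAAT words upstream. CDC25C has a CHR word at -30 and a reversed CCAAT at -85, counted from the start. CDK1 holds all 3 kinds, with CHR words at -69, -13 and 10.

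Over the whole 300-base windows, 35 of the 40 members had a promoter in the table (all but MCM4, MCM5, CCNE2, TTK and AURKA), and a gene counted where any of its promoters held a word. An E2F word was present in 12 of 17 S-phase members (70.6%) and 2 of 18 mitotic members (11.1%, CDK1 and the unmeasured CENPA), against 5.51% of 14239 measured genes with a promoter. A CHR word was present in 1 of 17 S-phase members (5.88%) and 13 of 18 mitotic members (72.2%), against 17.4% of measured genes. CCAAT was present in 58.8%, 88.9% and 42.2% in the same order. These are matches of letters in a window, not shown binding sites.

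**Figure D1:**
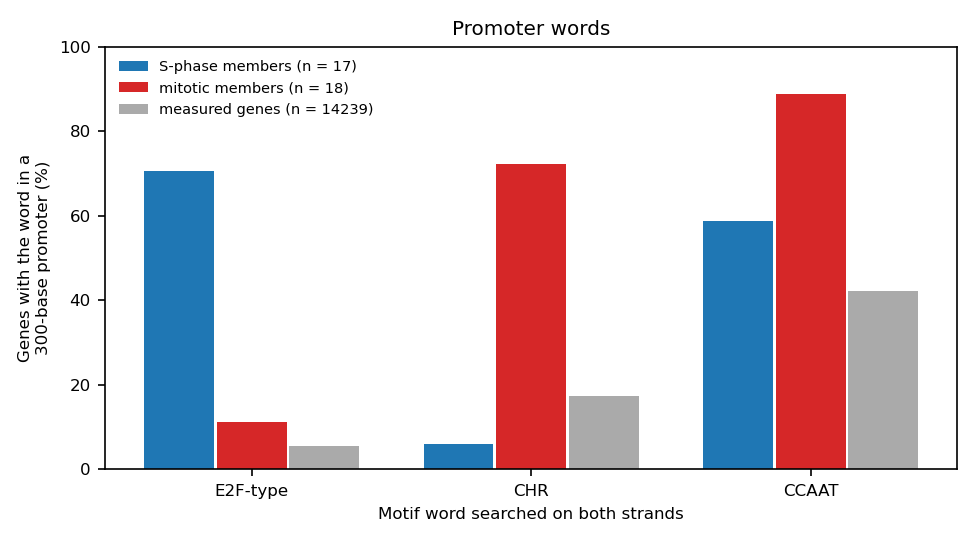
Share of genes (%) with an E2F-type, CHR or CCAAT word in a 300-base promoter, for S-phase members (blue), mitotic members (red) and all measured genes (grey). E2F words are in 70.6% of S-phase and CHR words in 72.2% of mitotic members.

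PAX5 itself followed the labels, with log2 group means of 12.73 in L428-PAX5+M and 12.79 in L428-PAX5+MAT against 7.49 in L428+M and 7.17 in L428+MAT. B-cell markers (5 genes) had group means from 4.34 to 6.76 in the 4 L428 groups and from 6.13 to 12.3 in Raji and Namalwa. This range and those of the next lists pool genes of unlike brightness, so they only describe the signals. Gene by gene, all 5 B-cell markers were higher in both Burkitt lines than in L428+M. Between L428-PAX5+M and L428+M 0 of the 5 passed. Hodgkin markers (5) ranged from 6.51 to 11.67 in the L428 groups and from 5.5 to 7.87 in the Burkitt lines. T and NK cell markers (6) had a median group mean of 5.52 in both, myeloid markers (4) 5.9 and 5.86, with CSF1R reaching 9.84 in an L428 group, and fibroblast and epithelial markers (6) 6.59 and 6.56. The replicates of L428-PAX5+MAT were the least alike. Arrays with the same replicate number deviated together between the 4 L428 groups, and this reached the members: the array numbered 3 was the lowest of its group in all 6 groups for AURKB, CDC20, CDT1, PCNA and PLK1, and the highest in all 6 for BUB1, BUB1B, CDC6, CENPE and KIF11. No member had this for number 1 or 2. A fit with the replicate number as a block is therefore given beside calls it changes among the L428 groups and between the Burkitt lines, whose same-numbered arrays all deviated together. These marker lists also moved between the L428 groups, as given beside each comparison, and their part in the members' results was not tested.

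Across the 6 groups the S-phase and mitotic members took different courses. As medians over members of the deviation from the L428+M mean, the S-phase members stood between 0.27 and 0.42 on the 3 arrays of L428-PAX5+M, between 0.29 and 0.36 in Raji and between 0.23 and 0.34 in Namalwa. They stood between -0.16 and 0.2 in L428+M itself, between -0.19 and 0.12 in L428+MAT, and between -0.26 and -0.03 in L428-PAX5+MAT. The S-phase medians of the first 3 groups thus lay above those of the other 3 with no overlap. The mitotic medians ran from -0.08 to -0.02 in L428-PAX5+M, from 0.03 to 0.21 in L428+MAT and from -0.33 to 0.2 in L428-PAX5+MAT. In Raji they ran from -0.35 to -0.26 and in Namalwa from -0.33 to -0.18. The gap of S-phase minus mitotic median was 0.63 ± 0.01 (SD, n = 3) in Raji, 0.56 ± 0.05 in Namalwa and 0.39 ± 0.05 in L428-PAX5+M, and it was -0.02 ± 0.19 in L428+M, -0.09 ± 0.13 in L428+MAT and -0.08 ± 0.15 in L428-PAX5+MAT. The gap was at least 0.35 on every array of the first 3 groups and at most 0.2 on every array of the others. In bulk RNA, fewer cells in a phase and less RNA of a gene per cell cannot be told apart.

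**Figure D2:**
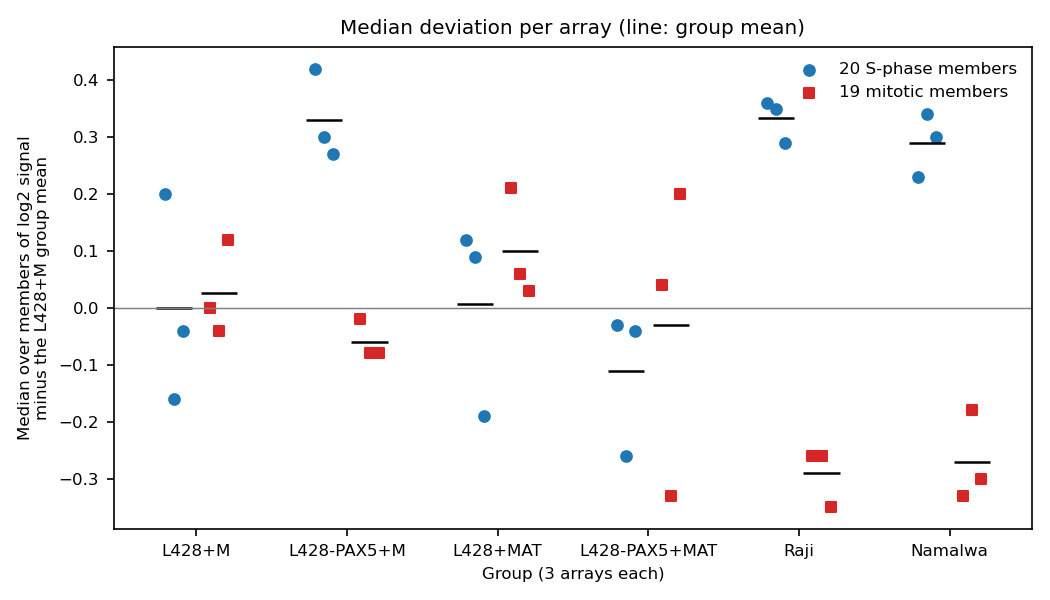
Median deviation of the 20 S-phase (circles) and 19 mitotic (squares) members from the L428+M mean, in log2 units, for each of 18 arrays by group; lines are group means. S-phase medians lie between 0.23 and 0.42 in L428-PAX5+M, Raji and Namalwa, and mitotic medians between -0.35 and -0.18 in the Burkitt lines.

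Members differed widely within each class. The distance between the highest and the lowest group mean had a median of 1.08 over S-phase members (from 0.35 to 2.15) and 0.95 over mitotic members (from 0.44 to 1.44). It was widest for MCM10 (2.15), CCNE2 (1.96), CDC6 (1.69) and GINS2 (1.67) among S-phase members and for CENPE (1.44) among mitotic ones. L428-PAX5+MAT was the lowest of the 6 groups for 10 of 20 S-phase members. Raji or Namalwa was the lowest for 11 of 19 mitotic members (6 and 5), and L428+MAT the highest for 7. These ranks take no account of spread, and the matching shares over all genes were not counted. The S-phase members lowest in L428-PAX5+MAT include GINS1, with a distance of 0.35. They also include PCNA, with a distance of 0.46 and a mean SD within groups of 0.45.

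**Figure D3:**
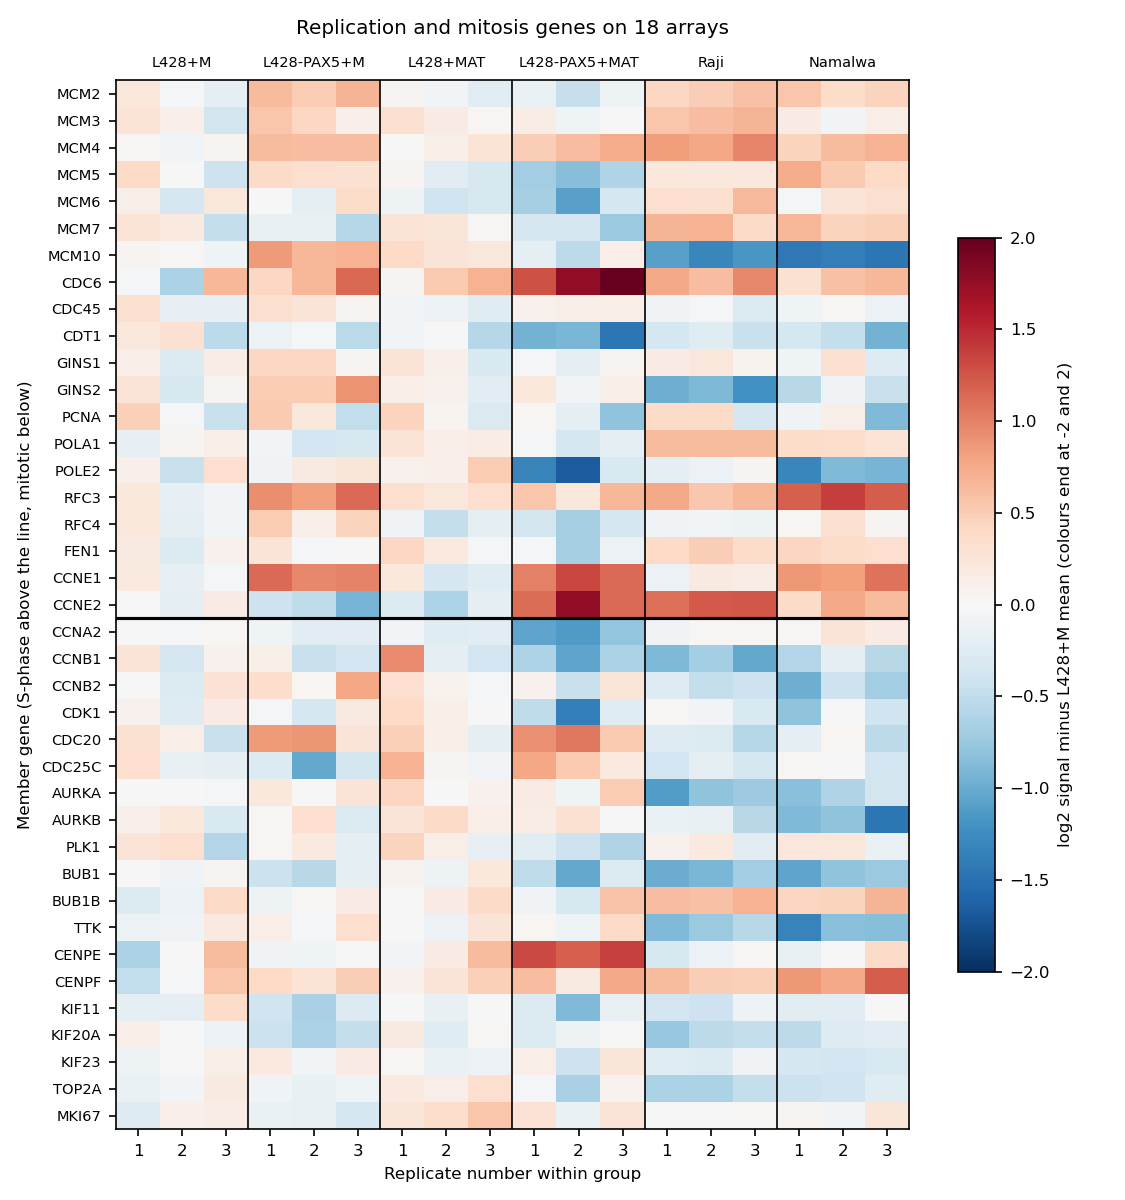
log2 signal of 39 members (rows; 20 S-phase above the line, 19 mitotic below) on 18 arrays (columns), minus the gene's L428+M mean; colours end at -2 and 2. The red CCNE2, CDC6 and CENPE cells in L428-PAX5+MAT stand beside blue POLE2, CDT1, MCM5 and CCNA2 cells, and MCM10 is deep blue in Raji and Namalwa.

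In PAX5-expressing L428 without drugs, part of the S-phase class was higher than in L428. Of 20 S-phase members 6 rose (30.0%), against 9.72% of all genes, and 1 fell (6.55% of all genes fell). Of 19 mitotic members 0 rose and 1 fell by limma, and at an unadjusted p below 0.05 the mitotic counts were 1 and 4. The median log2 difference was 0.32 over S-phase and -0.05 over mitotic members, against -0.03 over all genes. In the same comparison the myeloid marker CSF1R rose by 2.69 (SE 0.18), 1 of 4 on its list. Of 5 Hodgkin markers CCL17 rose (0.72 ± 0.17) and TNFRSF8 and MSC fell (-0.67 ± 0.21 and -0.86 ± 0.24), with 0 falls without L428+M replicate 1 or 2 and 1 without any 1 of the L428-PAX5+M arrays. Of 6 fibroblast and epithelial markers 1 fell, EPCAM (-0.57 ± 0.16), and 0 without L428+M replicate 2 or L428-PAX5+M replicate 2 or 3.

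Cyclin E1 gave the largest rise. CCNE1 moved from 7.91, 7.55 and 7.69 in L428+M to 8.86, 8.68 and 8.71 in L428-PAX5+M, a log2 change of 1.03 ± 0.16 (standard error, SE, as with every ± below; adjusted p = 0.000107). RFC3, a clamp loader subunit, read 9.77, 9.4 and 9.51 against 10.49, 10.38 and 10.69 (0.96 ± 0.14, adjusted p = 9.01e-05). All arrays of the PAX5 line lay above all of L428 for both genes. MCM10 read 11.25, 11.22 and 11.1 against 12.04, 11.86 and 11.88 (0.73 ± 0.14, adjusted p = 0.00117). MCM2 read 10.52, 10.25 and 10.1 against 10.92, 10.79 and 10.97 (0.60 ± 0.14, adjusted p = 0.00478). MCM4 (0.62 ± 0.12) and the GINS subunit GINS2 (0.64 ± 0.17) completed the 6, and no group overlapped for these genes. GINS2 no longer passed without L428+M replicate 2 (0.48) or L428-PAX5+M replicate 3 (0.51).

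Cyclin E2 went the other way from cyclin E1. CCNE2 moved from 8.3, 8.09 and 8.46 in L428+M to 7.87, 7.78 and 7.36 in L428-PAX5+M (-0.62 ± 0.19, adjusted p = 0.0275), a call that failed without L428+M replicate 1 (-0.61) or 3 (-0.53) or L428-PAX5+M replicate 3 (-0.46). KIF20A, a motor of cytokinesis, was the mitotic member that fell (-0.52 ± 0.14, adjusted p = 0.0165), except without L428+M replicate 1 (-0.45) or L428-PAX5+M replicate 2 (-0.46). PCNA (0.08 ± 0.32), CCNB1 (-0.24 ± 0.27) and the proliferation marker MKI67 (-0.21 ± 0.15) did not pass. With the replicate block 8 members rose and 5 fell: CDC6 (0.74, adjusted p = 0.00689) and CDC20, the activator of anaphase (0.67, adjusted p = 0.000498), joined the rises, and CDC25C, BUB1 and KIF11 the falls, at -0.56, -0.39 and -0.44. The count of falls was 0 without L428+M replicate 1, and that of mitotic rises 1 without L428+M replicate 1 or 3 or L428-PAX5+M replicate 3.

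Beyond the members, 8 of 49 other replication genes rose and 3 fell, among them GINS4 (1.21 ± 0.15) and the CTP synthase CTPS1 (1.09 ± 0.13) upward, and RRM2, the small subunit of ribonucleotide reductase, downward (-1.05 ± 0.15). The other falls were thymidylate synthase, TYMS (-0.70 ± 0.19), not without L428+M replicate 1 (-0.57) or L428-PAX5+M replicate 3 (-0.54), and the origin gene ORC4 (-0.59 ± 0.20), not without L428+M replicate 1 or 3 (-0.50 and -0.55) or L428-PAX5+M replicate 1 or 2 (-0.65 and -0.38). Of 52 other mitotic genes 1 rose and 1 fell, the latter being the condensin gene NCAPH (-0.66 ± 0.12). With the block these were 3 and 5. The rise was NCAPD3, another condensin gene (0.49 ± 0.14), and failed without L428+M replicate 2 or 3 (0.46 and 0.44) or L428-PAX5+M replicate 1 or 2 (0.41 and 0.49). The falls numbered 2, 3 and 2 without L428+M replicate 2 or L428-PAX5+M replicate 1 or 2. Of 42 regulators of the cycle 6 rose (14.3%, against 9.72% of all genes) and 4 fell (9.52%, against 6.55%). With the block these were 12 and 5. CCNG2, a cyclin linked to arrest, fell by 1.66 (SE 0.14), the inhibitor CDKN1B by 1.2 (SE 0.25) and the E2F repressor E2F7 by 0.99 (SE 0.13), while the checkpoint kinase ATR rose by 0.88 (SE 0.16) and CDC25A, a phosphatase that activates CDK2, by 0.66 (SE 0.16). The fourth regulator that fell was the kinase CDK2 (-0.52 ± 0.17), not without L428+M replicate 1 or 2 (-0.35 and -0.47) or L428-PAX5+M replicate 2 or 3 (-0.54 and -0.39). E2F1 (-0.01 ± 0.24), FOXM1 (-0.13 ± 0.15) and RB1 (-0.21 ± 0.15) did not pass. MYBL2, the gene of B-MYB (0.46 ± 0.17), and CDKN1A, the gene of the inhibitor p21 (0.43 ± 0.25), passed with the block only (adjusted p = 0.0152 and 0.0402).

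5-aza-dC and TSA in parental L428 moved no member past the test. None of 39 members rose and none fell by limma (0 and 0), against 4.21% and 0.635% of all genes, and the replicate block also gave 0 and 0. Few genes of any kind passed here, so these counts lie near the shares of all genes. At an unadjusted p below 0.05 the count was 1 higher (MKI67) and 0 lower. MKI67 read 11.03, 11.39 and 11.44 in L428+M against 11.53, 11.64 and 11.84 with the drugs (0.38 ± 0.15, adjusted p = 0.193), so its groups did not overlap. Median differences were 0.05 over S-phase members and 0.14 over mitotic members, against -0.04 over all genes. MCM2 differed by -0.07 ± 0.14, PCNA by 0.08 ± 0.32 and CCNB1 by 0.12 ± 0.27, and CCNB1 had 1 high array in L428+MAT (10.52, beside 9.37 and 9.18). Of the cell type markers the Hodgkin marker CCL22 rose by 2.7 (SE 0.17) and the keratin KRT8 by 1.56 (SE 0.22), and no other passed without the block.

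Few regulators moved in L428, and the share that rose was near that of all genes. CDKN1A read 7.55, 7.62 and 7.42 in L428+M and 8.87, 9.02 and 8.12 with the drugs (1.14 ± 0.25, adjusted p = 0.00867), a call that failed without L428+MAT replicate 2 (0.97). E2F7 rose by 0.76 (SE 0.13) and CCNG2 fell by 0.61 (SE 0.14), the latter not without L428+MAT replicate 3 (-0.47). These were the 2 rises (4.76%, against 4.21% of all genes) and 1 fall (2.38%, against 0.635%) among 42 regulators. Of 49 other replication genes 4 rose (CLSPN, GINS4, RRM2B and MCM8, from 0.42 to 0.73) and 0 fell, with 12 and 0 at an unadjusted p below 0.05. The rises numbered 9 with the block, 2 with array medians subtracted, 0 when either L428+M replicate 3 or else L428+MAT replicate 2 was left out, and 1 without any other array of the 2 groups. Of 52 other mitotic genes 0 rose and 0 fell by limma (3 and 0 with the block, 9 and 0 at an unadjusted p below 0.05). FOXM1 (0.26 ± 0.15), MYBL2 (0.38 ± 0.17), E2F1 (-0.02 ± 0.24) and RB1 (-0.29 ± 0.15) did not pass.

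With the same drugs in L428-PAX5, 9 of 20 S-phase members fell (45.0%), against 19.4% of all genes, and 2 rose (10.0%), against 14.2%. The control here, L428-PAX5+M, is the group in which 6 S-phase members were higher than in L428+M, so both comparisons use its arrays. Of 19 mitotic members 1 fell (5.26%) and 3 rose (15.8%). The median difference was -0.37 over S-phase members, 0.01 over mitotic members and -0.04 over all genes. The mitotic rises, at 15.8%, were near the 14.2% of all genes.

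Markers of cell types moved in this comparison as well. Of 6 fibroblast and epithelial markers 4 rose, namely KRT8 (1.65 ± 0.22), KRT18 (1.05 ± 0.36), COL1A1 (0.71 ± 0.17) and EPCAM (0.59 ± 0.16), with a list median of 0.65. The sum of the 6 log2 signals ran from 39.39 to 40.17 over the L428-PAX5+M arrays and from 42.97 to 43.91 over the L428-PAX5+MAT arrays. Of 4 myeloid markers CSF1R (0.71 ± 0.18) and CD14 (0.58 ± 0.16) rose, the latter not without L428-PAX5+MAT replicate 2 (0.43), the list median was 0.43, and the sums ran from 24.42 to 24.67 and from 25.45 to 27.15. Of 5 Hodgkin markers TNFRSF8 (-1.23 ± 0.21), MSC (-1.45 ± 0.24) and CCL17 (-1.78 ± 0.17) fell, with a list median of -1.23 and sums from 45.2 to 46.07 and from 41.33 to 41.55. These 3 lists therefore had sums that did not overlap between the groups. No B-cell, T-cell or NK-cell marker passed without the block, and 1 B-cell marker rose with it. Log2 signals have no true 0, so absence of a marker cannot be read from them, and the part of these markers in the members' changes was not tested.

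Among the origin and helicase genes, MCM5 moved from 10.21, 10.16 and 10.13 in L428-PAX5+M to 9.14, 8.98 and 9.23 in L428-PAX5+MAT (-1.05 ± 0.17, adjusted p = 8.2e-05), 2.07-fold lower. MCM2 read 10.92, 10.79 and 10.97 against 10.16, 9.83 and 10.19 (-0.83 ± 0.14, adjusted p = 0.000134). MCM10 read 12.04, 11.86 and 11.88 against 11.01, 10.66 and 11.32 (-0.93 ± 0.14, adjusted p = 6.4e-05). The loading factor CDT1 read 9.14, 9.23 and 8.71 against 8.3, 8.33 and 7.81 (-0.88 ± 0.23, adjusted p = 0.00571). For these 4 genes every treated array lay below every untreated array. MCM6 (-0.76 ± 0.20) and GINS2 (-0.54 ± 0.17) also fell, while MCM4 did not move past the test and read 11.23, 11.21 and 11.22 against 11.09, 11.22 and 11.34. The GINS2 call failed without L428-PAX5+M replicate 3 (-0.41) or L428-PAX5+MAT replicate 2 (-0.47).

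At the fork, POLE2, a subunit of polymerase epsilon, read 8.66, 8.91 and 8.97 against 7.4, 7.06 and 8.43 (-1.22 ± 0.27, adjusted p = 0.00151). It fell on all 3 arrays with no overlap, but the array numbered 3 stood more than 1 unit above the other 2, and the change was -1.61 without it. RFC4 fell by 0.81 (SE 0.15) and RFC3 by 0.48 (SE 0.14), the latter not without L428-PAX5+M replicate 3 (-0.39) or L428-PAX5+MAT replicate 2 (-0.35). PCNA read 10.74, 10.43 and 9.73 against 10.26, 10.04 and 9.42, lower at every replicate number. Its difference of -0.40 ± 0.32 had an adjusted p of 0.396, and 0.0204 with the replicate block.

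CCNE2 and CDC6 ran against their class. CCNE2 moved from 7.87, 7.78 and 7.36 in L428-PAX5+M to 9.4, 10.06 and 9.42 in L428-PAX5+MAT, a rise of 1.96 ± 0.19 or 3.89-fold (adjusted p = 3.67e-07), the largest change of any member in this comparison. CDC6 read 10.57, 10.81 and 11.3 against 11.43, 11.93 and 12.15 (0.94 ± 0.27, adjusted p = 0.0112). Neither gene's groups overlapped, but the CDC6 call failed without L428-PAX5+M replicate 1 or L428-PAX5+MAT replicate 3 (0.78 in each case). CCNE1 differed by 0.13 ± 0.16 and did not pass.

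**Figure D4:**
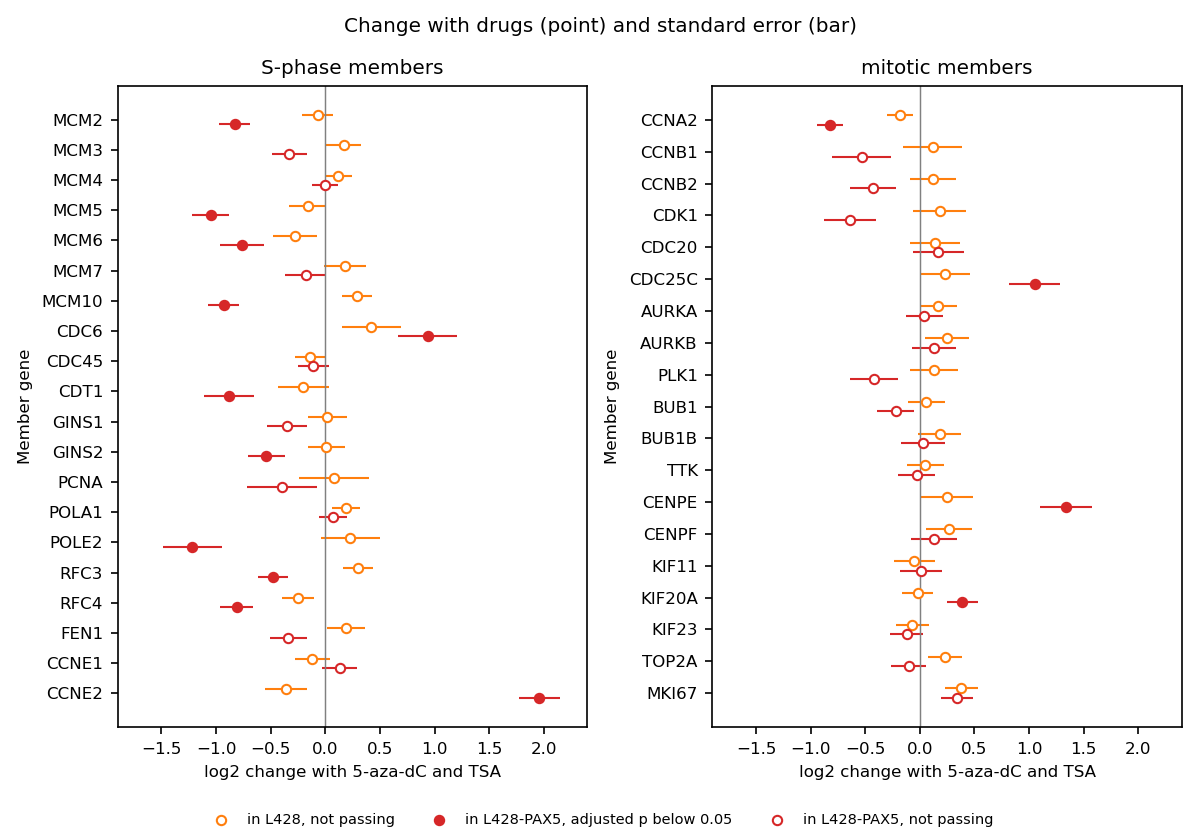
log2 change with 5-aza-dC and TSA for each member in L428 (orange) and L428-PAX5 (red), with bars of 1 standard error; filled points pass at an adjusted p below 0.05. No orange point is filled, and the red points spread from -1.22 for POLE2 to 1.96 for CCNE2.

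The mitotic members split by gene. Cyclin A2, which acts from S phase to early mitosis, read 10.95, 10.83 and 10.81 against 9.98, 9.91 and 10.25 (CCNA2, -0.82 ± 0.12, adjusted p = 4.33e-05). CENPE, a kinetochore motor, read 9.32, 9.31 and 9.39 against 10.71, 10.59 and 10.76 (1.34 ± 0.24, adjusted p = 0.00026), 2.54-fold higher. CDC25C, the phosphatase that activates CDK1, read 7.87, 7.11 and 7.78 against 8.91, 8.66 and 8.34 (1.05 ± 0.23, adjusted p = 0.00133). None of the 3 overlapped between groups. KIF20A rose by 0.39 (SE 0.14), a small change that no longer passed without any 1 of L428-PAX5+M replicates 1, 2 and 3 (0.44, 0.33 and 0.42) or L428-PAX5+MAT replicates 2 and 3 (0.38 and 0.33).

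CDK1, the mitotic kinase, read 9.79, 9.47 and 9.99 against 9.3, 8.45 and 9.56, with the low value on L428-PAX5+MAT replicate 2 (-0.64 ± 0.24, adjusted p = 0.051, and 0.0336 with the block). CCNB1 differed by -0.53 ± 0.27 (adjusted p = 0.153) and MKI67 by 0.34 ± 0.15 (adjusted p = 0.0833). PLK1, a kinase of mitotic entry, passed with the block only (-0.42, adjusted p = 0.0169). With the block 5 members rose and 13 fell, and 3 of the falls were mitotic. The count of rises was 3 without L428-PAX5+M replicate 1 or L428-PAX5+MAT replicate 3, and that of mitotic falls was 2 without L428-PAX5+M replicate 2 or L428-PAX5+MAT replicate 3.

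**Figure D5:**
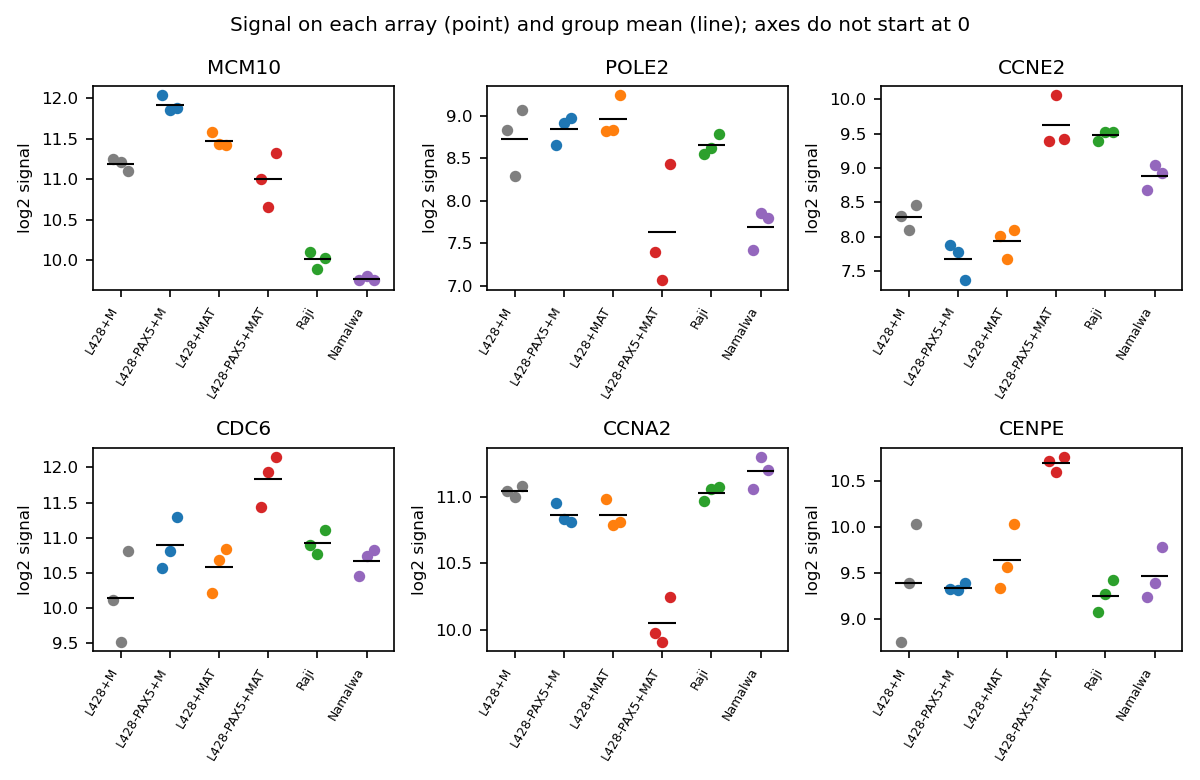
log2 signal of MCM10, POLE2, CCNE2, CDC6, CCNA2 and CENPE on each of 18 arrays (points) by group, with group means (lines); the axes differ between panels and do not start at 0. L428-PAX5+MAT is the highest group for CDC6 and CENPE, and its CCNA2 arrays, from 9.91 to 10.25, lie below all others.

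Genes around the members moved in both directions too. Of 49 other replication genes 17 fell and 8 rose, where 19.4% of all genes fell and 14.2% rose. TYMS fell by 1.74 (SE 0.19) and GINS3 by 1.05 (SE 0.15), while TICRR, a factor of origin firing, rose by 1.10 (SE 0.12) and GINS4 by 0.87 (SE 0.15). The rises numbered 5 without L428-PAX5+M replicate 3 or L428-PAX5+MAT replicate 1. Of 52 other mitotic genes 11 rose and 5 fell (17 and 8 with the block), with the kinetochore gene CENPI (1.29 ± 0.19) and SGO2, a guardian of cohesin (1.13 ± 0.17), at the top and DEPDC1 (-1.01 ± 0.24) and the kinetochore gene SPC24 (-0.85 ± 0.15) at the bottom. The other falls were MELK (-0.78), PRC1 (-0.71) and the checkpoint gene BUB3 (-0.49), whose call failed without L428-PAX5+M replicate 1 or 2 (-0.40 and -0.52) or L428-PAX5+MAT replicate 2 or 3 (-0.44 and -0.49). Without L428-PAX5+MAT replicate 1 the rises numbered 7.

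Of 20 genes of the E2F, RB and MuvB families 11 fell (55.0%, against 19.4% of all genes) and 2 rose (10.0%, against 14.2%), with a median difference of -0.47. E2F5 fell by 1.83 (SE 0.19) and LIN9, a MuvB subunit, by 1.54 (SE 0.21), while E2F7 rose by 1.03 (SE 0.13) and the MuvB subunit LIN37 by 0.97 (SE 0.25). FOXM1 read 10.71, 10.75 and 10.43 against 10.07, 9.59 and 10.22 (-0.67 ± 0.15, adjusted p = 0.00228). RB1 fell by 0.46 (SE 0.15), not without L428-PAX5+M replicate 3 (-0.36) or L428-PAX5+MAT replicate 2 (-0.34). Without L428-PAX5+MAT replicate 2 the falls of E2F6 (-0.37), RBL1 (-0.31) and RBL2 (-0.41) lost their calls too. E2F6 also failed without L428-PAX5+M replicate 1, and RBL1 without L428-PAX5+M replicate 1 or 3. The fall of E2F4 failed without L428-PAX5+M replicate 1 or 2 or L428-PAX5+MAT replicate 1 or 3. E2F1 (0.30 ± 0.24) and MYBL2 (0.23 ± 0.17) did not pass. Of all 42 regulators 15 fell (35.7%) and 7 rose (16.7%, near the share of all genes), and the rises numbered 4 without L428-PAX5+M replicate 3. The inhibitor CDKN2B rose by 1.59 (SE 0.24). CDKN1A read 7.93, 8.2 and 7.74 against 8.82, 9.14 and 8.42 (0.84 ± 0.25, adjusted p = 0.0134), a call that failed without L428-PAX5+M replicate 3 (0.73) or L428-PAX5+MAT replicate 2 (0.67).

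The drug change itself was compared between the 2 lines by the interaction of line and drugs. Of 20 S-phase members 5 had a lower change in L428-PAX5 than in L428 (25.0%, against 10.6% of all genes) and 1 a higher one (5.0%, against 5.64%). Of 19 mitotic members 1 was lower and 1 higher (5.26% each). Median differences of the change were -0.49 over S-phase members, -0.13 over mitotic members and 0.01 over all genes. Of 5 Hodgkin markers 4 had a lower change in L428-PAX5, from -2.61 for CCL22 to -1.36 for MSC. Of 6 fibroblast and epithelial markers 1, EPCAM, had a higher one (0.67 ± 0.22), a call lost without any 1 array except L428-PAX5+M replicate 1, L428+MAT replicate 1 and L428-PAX5+MAT replicate 3.

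POLE2 and MCM10 stood farthest down, at -1.45 ± 0.38 (adjusted p = 0.0131) and -1.22 ± 0.20 (adjusted p = 0.000621). MCM5 followed at -0.89 ± 0.23, RFC3 at -0.77 ± 0.20 and MCM2 at -0.76 ± 0.20. CCNE2 stood at 2.32 ± 0.26 (adjusted p = 2.7e-05), from a difference with the drugs of -0.36 ± 0.19 in L428, which did not pass, and the rise of 1.96 in L428-PAX5. Among mitotic members CCNA2 had -0.64 ± 0.17 (adjusted p = 0.0154) and CENPE 1.09 ± 0.34 (adjusted p = 0.034). The CENPE call was lost when any 1 of 9 arrays was left out: L428+M replicate 2 or 3, L428-PAX5+M replicate 1, 2 or 3, L428+MAT replicate 1 or 2, or L428-PAX5+MAT replicate 1 or 2, with values from 0.77 to 1.14. Its L428+M arrays ranged from 8.75 to 10.03. Without L428-PAX5+MAT replicate 3 the mitotic counts were 2 lower and 2 higher. PCNA (-0.47 ± 0.45), CCNB1 (-0.65 ± 0.38) and MKI67 (-0.04 ± 0.21) did not pass.

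CDT1, RFC4, CDC25C and PLK1 passed with the replicate block only, at -0.68, -0.56, 0.82 and -0.56. Among the regulators FOXM1 differed by -0.94 ± 0.22 (adjusted p = 0.00694), CDK6, a kinase of G1, by -1.72 ± 0.35 and CDKN2B by 1.44 ± 0.34. CDKN1A (-0.30 ± 0.35), E2F1 (0.32 ± 0.34), MYBL2 (-0.15 ± 0.23) and RB1 (-0.17 ± 0.21) did not pass. TYMS differed by -1.51 ± 0.26, GINS3 by -1.39 ± 0.21, and CENPI and SGO2 by 1.11 each (SE 0.27 and 0.24).

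Among drug-treated cells, L428-PAX5+MAT was set against L428+MAT. Of 20 S-phase members 7 were lower (35.0%, against 17.7% of all genes) and 4 higher (against 14.3%). Of 19 mitotic members 5 were lower (26.3%) and 2 higher (10.5%). Medians were -0.18 over S-phase and -0.13 over mitotic members. These counts rest on a pair of arrays: the S-phase count of lower members was 3, and the mitotic one 3 and 2, without L428+MAT replicate 1 or L428-PAX5+MAT replicate 2. Of 5 Hodgkin markers 4 were lower, from -2.52 for CCL22 to -1.09 for CCL17, and the myeloid marker CSF1R was higher by 3.12 (SE 0.18). CD14, COL1A1 and KRT8 were also higher (0.45, 0.51 and 0.66) and ITGAM and NKG7 lower (-0.33 and -0.82). Calls failed without L428-PAX5+MAT replicate 3 for NKG7, without any 1 of the 6 arrays for ITGAM, and without L428-PAX5+MAT replicate 1 or 2, among others, for CD14, COL1A1 and KRT8.

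POLE2 read 8.82, 8.83 and 9.24 in L428+MAT and 7.4, 7.06 and 8.43 in L428-PAX5+MAT (-1.33 ± 0.27, adjusted p = 0.000658). CDT1 (-0.90 ± 0.23) and MCM7 (-0.65 ± 0.19) followed, the latter not without L428-PAX5+MAT replicate 3 (-0.52). MCM5, MCM10 and POLA1, a subunit of the priming polymerase, differed by -0.55, -0.48 and -0.38, and each lost its call without L428+MAT replicate 1 (-0.45, -0.43 and -0.34) or L428-PAX5+MAT replicate 2 (-0.48, -0.31 and -0.30). The flap nuclease FEN1 (-0.47) lost it without L428+MAT replicate 1 (-0.37) or 2 (-0.48) or L428-PAX5+MAT replicate 2 (-0.28).

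The 4 S-phase members that were higher kept that call with any 1 array left out. CCNE2 read 8.01, 7.67 and 8.09 against 9.4, 10.06 and 9.42 (1.70 ± 0.19, adjusted p = 1.4e-06), 3.25-fold higher. CCNE1 read 7.93, 7.39 and 7.47 against 8.72, 9.06 and 8.86 (1.28 ± 0.16, adjusted p = 4.84e-06). CDC6 read 10.21, 10.68 and 10.84 against 11.43, 11.93 and 12.15 (1.26 ± 0.27, adjusted p = 0.00132). MCM4 was higher by 0.49 (SE 0.12), and no group overlapped for these genes.

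Of the mitotic members, CCNA2 read 10.98, 10.79 and 10.81 against 9.98, 9.91 and 10.25 (-0.81 ± 0.12, adjusted p = 3.8e-05) and kept its call with any 1 array left out. CCNB1 read 10.52, 9.37 and 9.18 against 8.96, 8.51 and 8.93 (-0.89 ± 0.27, adjusted p = 0.0161), and without the high L428+MAT replicate 1 it differed by -0.47 and did not pass, nor without L428-PAX5+MAT replicate 2 (-0.74). CDK1 (-0.88 ± 0.24) did not pass without L428-PAX5+MAT replicate 2 (-0.56). BUB1, a checkpoint kinase, differed by -0.67 ± 0.17. TOP2A, the topoisomerase that untangles chromosomes (-0.43 ± 0.16), failed without any 1 of L428+MAT replicates 1, 2 and 3 (-0.44, -0.47 and -0.38) or L428-PAX5+MAT replicate 2 (-0.21). CENPE was higher by 1.04 ± 0.24. CDC20 (0.69 ± 0.23) failed without L428+MAT replicate 2 or 3 (0.68 and 0.54) or L428-PAX5+MAT replicate 1 or 2 (0.65 and 0.59). MCM2 (-0.16 ± 0.14) and MKI67 (-0.25 ± 0.15) did not pass. MCM6, PCNA, PLK1 and KIF11 passed as lower with the block only, at -0.43, -0.39, -0.55 and -0.38. FOXM1 differed by -1.07 ± 0.15 (adjusted p = 3.04e-05), and RB1 (-0.38 ± 0.15) passed with the block only (adjusted p = 0.0103). CDKN1A (0.13 ± 0.25), E2F1 (0.31 ± 0.24) and MYBL2 (0.31 ± 0.17) did not pass.

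Both Burkitt lines were compared with L428+M, which they share as control. Of 20 S-phase members 8 were higher in Raji and 8 in Namalwa (40.0% each, against 15.7% and 18.4% of all genes), and 2 were lower in each (10.0%, against 15.6% and 15.5%). Of 19 mitotic members 6 were lower in Raji and 5 in Namalwa (31.6% and 26.3%), and 1 was higher in each. S-phase medians were 0.31 and 0.26 and mitotic medians -0.29 and -0.33, against 0.05 and 0.00 over all genes. All 5 B-cell markers were higher in both lines, and 4 of 5 Hodgkin markers were lower and 1, CCL22, higher. Of 4 myeloid markers 1 was higher in Raji (LYZ, 0.63 ± 0.18), and 0 without Raji replicate 3.

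MCM10 was lower in both lines. It read 11.25, 11.22 and 11.1 in L428+M, 10.1, 9.89 and 10.03 in Raji (-1.18 ± 0.14, adjusted p = 1.79e-06) and 9.76, 9.8 and 9.75 in Namalwa (-1.42 ± 0.14, adjusted p = 1.44e-07). GINS2 read 12.47, 11.9 and 12.28 in L428+M and 11.24, 11.32 and 11.01 in Raji (-1.03 ± 0.17, adjusted p = 0.000101). POLE2 read 8.83, 8.29 and 9.07 in L428+M and 7.42, 7.85 and 7.8 in Namalwa (-1.04 ± 0.27, adjusted p = 0.00408). None of these overlapped with L428+M. Each of the 2 lines thus had MCM10 and 1 further S-phase member below L428.

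CCNE2 read 9.39, 9.52 and 9.53 in Raji and 8.68, 9.04 and 8.92 in Namalwa, against 8.3, 8.09 and 8.46 in L428+M. Its difference was 1.19 ± 0.19 in Raji (adjusted p = 4.01e-05) and 0.59 ± 0.19 in Namalwa (adjusted p = 0.0177), the latter lost without L428+M replicate 2 (0.49) or Namalwa replicate 2 (0.51) or 3 (0.57). MCM4 was higher by 0.86 ± 0.12 in Raji and 0.58 ± 0.12 in Namalwa. RFC3 was higher by 0.65 ± 0.14 and 1.26 ± 0.14. CCNE1 read 8.58, 8.54 and 8.81 in Namalwa (0.93 ± 0.16, adjusted p = 8.57e-05) and 7.61, 7.9 and 7.87 in Raji, all within the L428+M range of 7.55 to 7.91.

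The remaining rises were smaller. In Raji, POLA1 (0.64 ± 0.13) and MCM3 (0.61 ± 0.16) were higher, as were CDC6 (0.78 ± 0.27), MCM7 (0.59 ± 0.19) and MCM2 (0.50 ± 0.14). The CDC6 call failed without L428+M replicate 1 or 2 (0.76 and 0.46) or Raji replicate 1 or 3 (0.79 and 0.69), that of MCM7 without L428+M replicate 3 (0.35) or Raji replicate 1 or 2 (0.54 and 0.53), and that of MCM2 without L428+M replicate 3 (0.40). In Namalwa, MCM5 (0.55 ± 0.17), MCM7 (0.52 ± 0.19), MCM2 (0.45 ± 0.14) and POLA1 (0.33 ± 0.13) were higher. Without L428+M replicate 3 or Namalwa replicate 1 the calls of MCM2 (0.35 and 0.40), MCM5 (0.35 and 0.46) and MCM7 (0.28 and 0.46) were lost. MCM7 was also lost without Namalwa replicate 2 or 3 (0.57 and 0.55). POLA1 failed without L428+M replicate 1 or 2 (0.25 and 0.36) or any 1 of Namalwa replicates 1, 2 and 3 (0.32, 0.32 and 0.36). Without Namalwa replicates 1, 2 and 3 in turn, the S-phase members higher in that line numbered 4, 5 and 5. PCNA differed by 0.15 ± 0.32 in Raji and -0.28 ± 0.32 in Namalwa and did not pass.

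The mitotic members below L428 included the kinases TTK, BUB1 and AURKA in both lines. TTK, the kinase at the head of the spindle checkpoint, read 10.27, 10.32 and 10.59 in L428+M, 9.5, 9.64 and 9.84 in Raji (-0.73 ± 0.17, adjusted p = 0.00234) and 9.06, 9.55 and 9.54 in Namalwa (-1.01 ± 0.17, adjusted p = 9.43e-05). BUB1 read 12.11, 12.04 and 12.17 in L428+M, 11.11, 11.19 and 11.42 in Raji and 11.06, 11.3 and 11.37 in Namalwa, a difference of -0.87 ± 0.17 in each. AURKA, the kinase of spindle poles, read 10.68, 10.68 and 10.65 in L428+M, 9.56, 9.86 and 9.95 in Raji (-0.88 ± 0.17, adjusted p = 0.000311) and 9.84, 10.07 and 10.3 in Namalwa (-0.60 ± 0.17, adjusted p = 0.00767). No Burkitt array reached the L428+M range for these 3 genes. The Namalwa call of AURKA was lost without Namalwa replicate 1 (-0.48).

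AURKB, the kinase of the chromosomal passenger complex, read 10.99, 11.1 and 10.59 in L428+M and 10, 10.08 and 9.44 in Namalwa (-1.05 ± 0.20, adjusted p = 0.00024), with no overlap. CCNB1 differed by -0.87 ± 0.27 in Raji (adjusted p = 0.0182, lost without L428+M replicate 1 or 3, at -0.74 and -0.83, or Raji replicate 1 or 3, at -0.85 and -0.79) and by -0.43 ± 0.27 in Namalwa, where it did not pass. CCNB2 was lower in Namalwa (-0.70 ± 0.21), not without L428+M replicate 3 or Namalwa replicate 1 (-0.55 each). KIF20A (-0.59 ± 0.14) and TOP2A (-0.58 ± 0.16) were lower in Raji. Without Namalwa replicate 1 the mitotic members lower in that line numbered 3.

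Against this direction, BUB1B, a subunit of the checkpoint complex that holds back anaphase, was higher in Raji (0.63 ± 0.20, adjusted p = 0.0202), a call that failed without L428+M replicate 1 or 2 (0.49 and 0.57) or Raji replicate 3 (0.60). CENPF, a kinetochore protein, read 9.72, 10.18 and 10.77 in L428+M and 11.09, 10.98 and 11.43 in Namalwa (0.94 ± 0.21, adjusted p = 0.00143). MKI67 differed by 0.01 ± 0.15 in Raji and 0.08 ± 0.15 in Namalwa and did not pass. Without L428+M replicate 3 the mitotic members higher numbered 2 in each line. Deviations of same-numbered arrays from L428+M and these lines correlated at 0.06, 0.21 and 0.40 (Raji) and 0.15, -0.01 and 0.50 (Namalwa) for numbers 1, 2 and 3, so not every number exceeded 0.1.

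Of 49 other replication genes 13 were higher and 6 lower in Raji, and 15 and 8 in Namalwa. Among all genes, 15.7% were higher and 15.6% lower in Raji, and 18.4% and 15.5% in Namalwa. CTPS1 was higher in both lines (1.11 ± 0.13 and 1.47 ± 0.13) and the primase subunit PRIM1 lower (-1.14 ± 0.19 and -1.50 ± 0.19). Of 52 other mitotic genes 2 were higher and 16 lower in Raji, led by RACGAP1, a gene of cytokinesis (-1.17 ± 0.13), and PBK, a mitotic kinase (-1.16 ± 0.25). The rises were CKAP2 (0.55 ± 0.15) and SPC24 (0.39 ± 0.15), the latter not without L428+M replicate 2 or 3 (0.36 and 0.37) or Raji replicate 1 or 2 (0.39 and 0.34). In Namalwa 11 were higher, among them PRC1 of the central spindle (0.89 ± 0.15) and the separase ESPL1 (0.89 ± 0.18), and 12 lower, led by DEPDC1 (-1.46 ± 0.24) and MELK (-1.45 ± 0.21). The rises numbered 7 without L428+M replicate 1 or Namalwa replicate 1 or 3.

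Of 42 regulators 15 were higher (35.7%) and 7 lower (16.7%) in each line. The lower share was near the 15.6% and 15.5% of all genes that were lower in Raji and Namalwa. The D cyclins parted most: CCND2 differed by -6.44 ± 0.17 in Raji and -6.50 ± 0.17 in Namalwa, while CCND3 was higher by 2.26 ± 0.31 and 2.34 ± 0.31. CDKN1B was lower (-2.05 ± 0.25 and -2.85 ± 0.25). MYBL2 was higher (1.46 ± 0.17 and 1.54 ± 0.17), as were E2F1 (0.88 ± 0.24 and 1.02 ± 0.24) and CDKN1A (1.16 ± 0.25 and 1.85 ± 0.25), and FOXM1 did not pass (-0.15 ± 0.15 and 0.01 ± 0.15). The Raji call of E2F1 was lost without L428+M replicate 3 (0.69). RB1 was higher by 1.28 ± 0.15 in Namalwa and by 0.40 ± 0.15 in Raji, the latter lost without any 1 of L428+M replicates 1, 2 and 3 (0.37, 0.37 and 0.45) or Raji replicates 2 and 3 (0.45 and 0.27).

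Between the Burkitt lines, 3 S-phase members were higher in Raji than in Namalwa and 3 lower (of 20, against 7.74% and 11.5% of all genes), and of 19 mitotic members 1 was higher and 0 lower. At an unadjusted p below 0.05 the mitotic counts by limma were 1 and 0, as with the replicate block. The median difference was 0.20 over S-phase and -0.14 over mitotic members. Of 5 B-cell markers 3 were higher in Raji. CCNE1 (-0.85 ± 0.16, adjusted p = 0.000437), GINS2 (-0.67 ± 0.17) and RFC3 (-0.61 ± 0.14) were lower in Raji. The GINS2 call failed without Namalwa replicate 2 (-0.53). POLE2 (0.96 ± 0.27, adjusted p = 0.013), CCNE2 (0.60 ± 0.19) and MCM3 (0.53 ± 0.16) were higher in Raji. Without Namalwa replicate 1, Raji replicate 2 or Raji replicate 3 the S-phase members higher in Raji numbered 1, 1 and 0. POLE2 failed without Namalwa replicate 1 (0.83) or Raji replicate 3 (0.90), CCNE2 without Namalwa replicate 1 or 3 (0.50 and 0.62) or Raji replicate 2 or 3 (0.58 each), and MCM3 without Namalwa replicate 2 (0.46) or Raji replicate 2 or 3 (0.53 and 0.50). AURKB was the mitotic member higher in Raji (0.77 ± 0.20, adjusted p = 0.00729), not without Namalwa replicate 3 (0.57). MCM2 (0.05 ± 0.14), CCNB1 (-0.43 ± 0.27) and MKI67 (-0.07 ± 0.15) did not pass, and PCNA (0.43 ± 0.32) passed with the replicate block only (adjusted p = 0.0212).

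Of the 39 measured members, 7 passed in none of the 8 comparisons without the replicate block: CDC45, GINS1 and PCNA of the S-phase members, and PLK1, KIF11, KIF23 and MKI67 of the mitotic ones. With the block PCNA and PLK1 passed in 3 comparisons each, KIF11 in 2 and KIF23 in 1 (Namalwa against L428+M, -0.34, adjusted p = 0.039), and CDC45, GINS1 and MKI67 in 0. The distance between their highest and lowest group mean was 0.35 for CDC45 and GINS1, 0.44 for the spindle motor KIF11, 0.45 for KIF23, a motor of cytokinesis, 0.46 for PCNA, 0.55 for PLK1 and 0.59 for MKI67. The mean SD within groups was 0.45 for PCNA and 0.15 for MKI67, so that PCNA, with its low arrays numbered 3, was measured with the least precision of these.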

How the data were processed

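RNA of 18 samples was measured on Affymetrix whole-transcript arrays. The authors deposited 1 log2 value for each probe set and array, and the submitters' processing notes name RMA and Partek. Their versions and the array build are not given in the sources used here. Medians of the arrays ran from 6.52 to 6.70. Of 33297 probe sets, 19460 carry 1 gene symbol, 1754 several, and 12083 are unnamed here. For each of 18417 genes the probe set of highest mean was used, and 769 genes had more than 1. No 2 arrays held identical values.

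Group means were fitted over all 18 arrays with limma 3.58.1 in R 4.3.3 (lmFit, eBayes without trend), with two-sided tests and Benjamini-Hochberg adjustment over 18417 genes. The fit was tried on simulated data with independent noise, which lacks the shared deviations of same-numbered arrays and so cannot speak to them. The threshold of a call was an adjusted p of 0.05. Members with their classes, the other lists (49 replication, 52 mitotic and 42 regulator genes matched to the array), cell type markers and motif words were chosen with earlier results of these data known. The named genes are, per comparison, the 3 S-phase and 3 mitotic members of largest change in each direction among those passing, MCM2, PCNA, CCNB1, MKI67, E2F1, FOXM1, MYBL2, RB1 and CDKN1A, members against their class, and up to 2 list genes of largest change. Others are named to account for small counts, after their values were seen. Same-numbered arrays had deviations correlated at r of 0.27 or more in every pair of L428 groups and 0.33 or more between Raji and Namalwa, and from 0.06 to 0.40 and from -0.01 to 0.50 between L428+M and Raji or Namalwa, not above 0.1 at every number. Precision is limited by 3 arrays per group. Tables and figures were made in Python 3.11.15.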

Additional observations from a re-analysis of the deposited data

Results flagged for a closer look

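For 8 members the log2 change with 5-aza-dC and TSA differed between L428-PAX5 and L428 by limma's interaction test (change in L428-PAX5 minus change in L428). The S-phase members were POLE2 (-1.45), MCM10 (-1.22), MCM5 (-0.89), RFC3 (-0.77), MCM2 (-0.76) and CCNE2 (2.32). The mitotic members were CCNA2 (-0.64) and CENPE (1.09). The 3 arrays of L428-PAX5+MAT, which enter all of these, were the least alike of any group, and the part of that spread in these differences was not tested beyond leaving out each array in turn. The L428-PAX5+M arrays also enter all of these differences, and MCM2, MCM10 and RFC3 were among the members higher in that group than in L428+M. With any 1 array left out, 7 of the 8 kept their call, and CENPE did not.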

How the results depend on the processing

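The log2 values have no detection calls, and dim probes understate change. With the replicate block, the members that fell with PAX5 alone numbered 5 in place of 2. With only the groups compared in the fit, those lower in L428-PAX5+MAT than in L428+MAT numbered 7 in place of 12, and those with a higher drug change in L428-PAX5 numbered 1 in place of 2. The cause was not tested. Against L428+M, whose numbers did not pair with the Burkitt lines at every number, the block gave 12 members higher and 10 lower in each line, in place of 9 and 8 in Raji and 9 and 7 in Namalwa. The block, which pairs by number and is taken from the data, turned 28 of 312 tests of single members into calls and ended 0. Subtracting array medians gained 6 calls and ended 3, leaving out dim genes gained 6 and ended 0, a trended and robust fit gained 2 and ended 1, and fitting only the compared groups ended 15. Averaging probe sets could not alter a member's values, since each member had 1 probe set, so it does not test them. No member's called change reversed under these settings.

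With each array left out in turn, members higher and lower numbered 5 to 8 and 0 to 2 for L428-PAX5+M against L428+M. The counts were 0 and 0 for the drugs in L428, and 3 to 5 and 8 to 11 for the drugs in L428-PAX5. Members numbered 5 to 6 and 5 to 13 between the drug-treated lines, and 1 to 3 and 6 to 7 for the interaction. They numbered 7 to 8 and 7 to 8 in Raji, 5 to 8 and 6 to 8 in Namalwa, and 1 to 4 and 2 to 3 between the Burkitt lines. The S-phase minus mitotic median difference, in the same order, was 0.37 (0.23 to 0.53), -0.09 (-0.19 to 0.01), -0.38 (-0.49 to -0.24), -0.06 (-0.13 to 0.12), -0.36 (-0.51 to -0.25), 0.61 (0.53 to 0.70), 0.59 (0.50 to 0.63) and 0.33 (0.13 to 0.37). Each is a difference between medians of per-gene changes, which need not equal the change of the per-array gap. Between the Burkitt lines that gap differed less than the 0.33, with means of 0.63 in Raji and 0.56 in Namalwa.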
